A study of Homo sapiens with 6 samples.

Results

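Chromosome 14 is described here through its METTL14 islands, the stretches of chromatin that the authors' caller outlined in an anti-HA chromatin immunoprecipitation with sequencing (ChIP-seq) of HepG2 cells. All islands on chromosome 14 in both deposited tables of candidate islands were taken, without those that overlap chr14:24030000-24170000 or chr14:94838000-94862100 (build hg19, as for all positions below). That gave 3946 of the 67802 islands of the DRB table and 1378 of the 38696 islands of the untreated table, with 22 and 6 islands left out in the excluded windows. Islands were taken by position, with no cut on a measured value, though earlier results of these data were known when the members were chosen. Within the chromosome, the gene-poor stretches from 25 to 31 Mb and from 39 to 50 Mb were set against the rest, an island being placed by its midpoint. The stretches held 1549 DRB islands and 482 untreated islands, and the rest of the chromosome held 2397 and 896.

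The DRB group consisted of 1 IP library and 1 input library from HepG2 cells exposed to 100 µM DRB for 3 h. The untreated group consisted of 2 IP libraries and 2 input libraries. HepG2 is a human hepatocellular carcinoma line. The cells of both groups had been infected with lentivirus made from a PLJM1 vector that encodes METTL14 with an HA tag at its N-terminal end and EGFP at its C-terminal end, selected with puromycin and sorted for high GFP. The immunoprecipitated protein was therefore an overexpressed, tagged METTL14, in a sorted pool of cells. The promoter of the vector is not given in the sources used here, and an IP from cells without the tag was not analysed here.

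METTL14 binds RNA and pairs with METTL3, the enzyme that places N6-methyladenosine on nascent RNA. It is known to recognise trimethylated lysine 36 of histone H3, a mark that is laid down along the bodies of transcribed genes. DRB inhibits CDK9, the kinase that releases RNA polymerase II into elongation, so the comparison asks where METTL14 lies on chromatin when elongation is blocked. A gene-poor stretch offers few transcribed gene bodies. The first stretch is known to carry NOVA1, which encodes a neuronal splicing factor. RefSeq lists 605 protein-coding genes on chromosome 14 (assembly GRCh38.p14, used for names and neighbours only). Of these, 38 stand between PRKD1 and SEC23A, the part that separates the stretches, among them NFKBIA, an inhibitor of NF-kappa B, and FOXA1, a pioneer factor of liver. The second stretch starts with a group of 6 genes from SEC23A to FBXO33, after which LRFN5, a synaptic adhesion protein, is the only gene before FSCB. No gene table of hg19 was used, so no island is tied to a gene.

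Each island carries a count of IP reads and a count of input reads, and its fold is IP over input reads times the authors' constant for that table (0.861 for DRB and 1.07 for untreated). The DRB islands of chromosome 14 held 194671 IP reads and 151547 input reads, an IP over input of 1.28 and a fold of 1.11 (1.10 to 1.11). The untreated islands held 1536878 IP reads and 1603088 input reads, an IP over input of 0.959 and a fold of 1.03 (1.03 to 1.03). Intervals are 95% intervals that cover counting error only. Replicate libraries were pooled in the deposited tables, so no value has an error between replicates, and each comparison is one of these libraries. A fold of 1 is no neutral level either. The mitochondrial island alone took 18.0% of the IP reads and 51.2% of the input reads in DRB islands, against 5.51% and 8.56% in untreated islands, and all nuclear islands together had a fold of 1.28 with DRB and 1.06 untreated.

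The islands were not spread evenly along chromosome 14 but packed between 22 and 44 Mb. That part holds the first stretch and the second stretch up to 44 Mb. Before it, cover rose from 2.12% with DRB and 2.86% untreated at 19 to 20 Mb to 26.3% and 41.3% at 21 to 22 Mb. Between 22 and 44 Mb, DRB islands covered a median of 51.3% of each 1 Mb bin (33.1% to 81.2% over 22 bins) and untreated islands covered 91.9% (66.2% to 97.7%). From 44 Mb on, the medians over 63 bins were 2.08% with DRB (0% to 11.0%) and 2.60% untreated (0% to 15.8%). This block of 22 Mb, whose limits were set after the coverage had been seen, held 2957 of the 3946 DRB islands and 820 of the 1378 untreated islands. Only 867 DRB and 486 untreated islands lay from 44 Mb on, and 122 and 72 lay before 22 Mb.

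**Figure D1:**
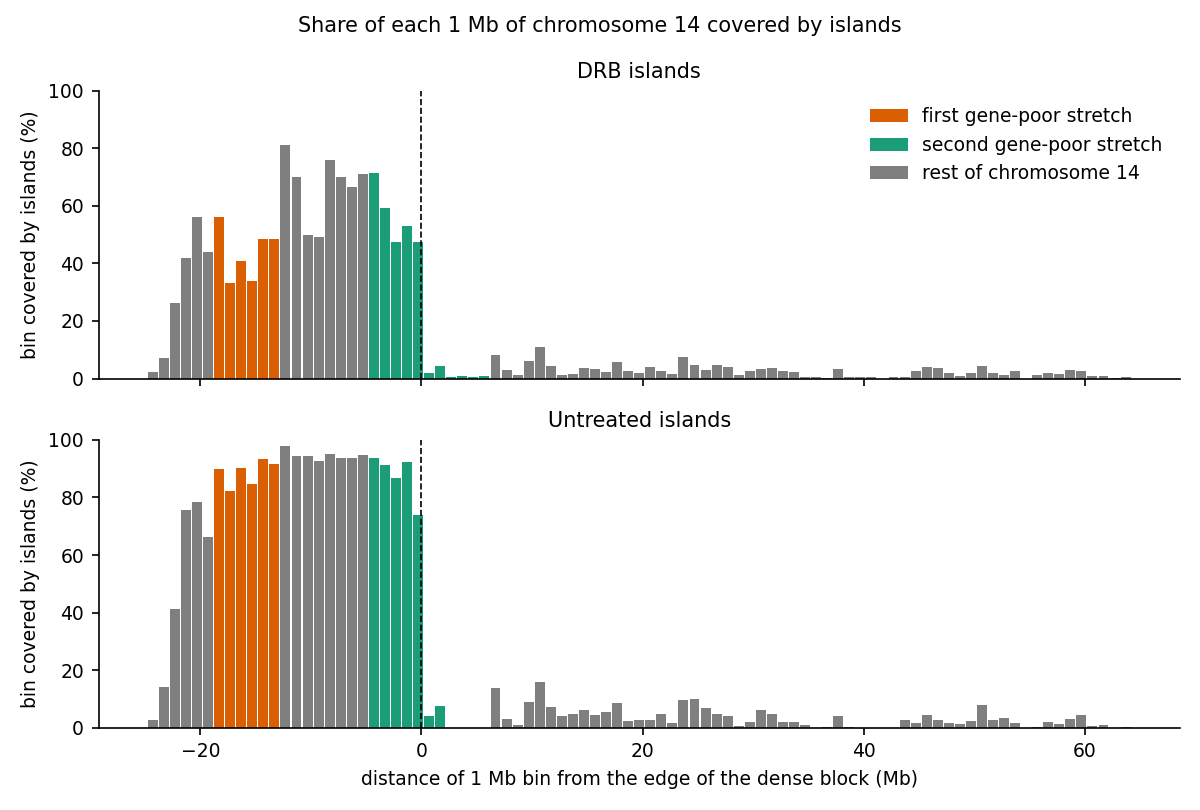
Share of each 1 Mb bin of chromosome 14 covered by islands (y axis, percent) against the distance of the bin's centre from the edge of the dense block (x axis, Mb), with DRB above and untreated below. Colours mark the first and the second gene-poor stretch and the rest. Bins left of the edge reach 81.2% with DRB and 97.7% untreated, and bins from 44 Mb on stay at or below 11.0% and 15.8%.

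The block ended abruptly, inside the second stretch. Its last untreated island, chr14:43765801-43801000, was 35.2 kb wide with 3644 IP and 3509 input reads, a fold of 1.11. The next one, chr14:44019001-44025000, lay 218 kb further on, was 6.0 kb wide and had 223 IP and 210 input reads, a fold of 1.14. In the last 1 Mb before position 43801000, DRB islands covered 57.1% and untreated islands 92.7%. In the 1 Mb after it they covered 1.72% and 3.94%. The dense cover ended at the same place in both tables. The far part of the second stretch, from 44 to 50 Mb, was almost bare, with 51 DRB islands and 22 untreated islands. No untreated island lay in 4 of its 6 bins, those from 46 to 50 Mb.

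Input, the sheared chromatin before immunoprecipitation, was denser in the block as well. Over the islands of the block it amounted to 11.3 reads per kb with DRB and 74.6 reads per kb untreated. Over those from 44 Mb on it amounted to 6.44 and 52.0 reads per kb. IP reads per kb were 14.1 with DRB and 71.1 untreated in the block, and 11.7 and 53.3 from 44 Mb on. The fold over the block was thus the lower one: 1.07 with DRB and 1.02 untreated, against 1.57 and 1.10 from 44 Mb on. That is a ratio of 0.683 (0.666 to 0.701) with DRB and of 0.929 (0.921 to 0.937) untreated. Islands were outlined in the IP, so ground with little input enters only where it has many IP reads. That favours a higher fold from 44 Mb on, and its part in these ratios was not tested. Copy number of chromosome 14 was not measured in these files, and the part of input density in these folds was not tested.

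Set against the rest of chromosome 14, the gene-poor stretches had the higher summed fold in both conditions. With DRB the stretches held 71727 IP and 52638 input reads, a fold of 1.17 (1.16 to 1.19), and the rest held 122944 and 98909, a fold of 1.07 (1.06 to 1.08). The stretches stood at 1.10 times the rest (1.08 to 1.11). In untreated cells they held 651490 IP and 667446 input reads, a fold of 1.05 (1.04 to 1.05), against 885388 and 935642 in the rest, a fold of 1.02 (1.01 to 1.02), which is 1.03 times the rest (1.03 to 1.04). In terms of IP over input, these were 1.36 and 1.24 with DRB and 0.976 and 0.946 untreated. Per kb of island, the stretches held fewer reads of both kinds. With DRB they held 13.1 IP and 9.60 input reads per kb, against 14.3 and 11.5 in the rest. Untreated they held 66.6 and 68.2, against 71.4 and 75.4. The higher fold thus went with fewer input reads, not with more IP reads per kb. The contrast was 1.06 times as large with DRB as untreated (1.05 to 1.08), and the tables' scaling constants cancel in that value.

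The first stretch carried most of the DRB contrast. From 25 to 31 Mb the DRB fold was 1.25 (1.23 to 1.27), or 1.17 times the rest (1.14 to 1.19), and the untreated fold was 1.05 (1.04 to 1.05), or 1.03 times the rest (1.03 to 1.04). From 39 to 50 Mb the DRB fold was 1.12 (1.10 to 1.14), or 1.05 times the rest (1.03 to 1.06), and the untreated fold was 1.05 (1.04 to 1.05), or 1.03 times the rest (1.02 to 1.04). With the second stretch alone the contrast did not differ between DRB and untreated beyond counting error (1.02, 0.997 to 1.03). With the first alone it was 1.13 times as large with DRB (1.11 to 1.15).

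The contrast over the whole chromosome sets stretches that lie mostly in the dense block against a rest that mixes both kinds of territory. The median over single islands turned it round: DRB islands of the stretches had a median fold of 1.27 against 1.29 in the rest, a ratio of 0.984. The untreated medians were 1.06 and 1.04, a ratio of 1.01. Within the block alone, a comparison added after the data were seen, the contrast was larger. With DRB the stretches had 1.17 (1.15 to 1.18) and the rest of the block 1.01 (1.00 to 1.02), a ratio of 1.15 (1.14 to 1.17). Untreated, they had 1.05 (1.04 to 1.05) and 1.00 (0.999 to 1.01), a ratio of 1.04 (1.04 to 1.05). There the medians over islands went the same way, at 1.26 against 1.15 with DRB and 1.06 against 1.01 untreated. IP reads per kb were again fewer in the stretches than in the rest of the block. They were 13.1 against 14.9 with DRB and 66.8 against 75.4 untreated. Beyond the block, from 44 Mb on, the contrast was within counting error. The 51 DRB islands from 44 to 50 Mb had 1.09 times the fold of the 816 islands further on (0.982 to 1.22), and the 22 untreated islands had 0.981 times the fold of 464 (0.945 to 1.02).

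The block's 1 Mb bins showed how even this was. The highest DRB folds of all 22 bins were 1.41 (1.34 to 1.49) at 26 to 27 Mb and 1.36 (1.30 to 1.42) at 27 to 28 Mb, both in the first stretch. The lowest were 0.922 (0.889 to 0.955) at 24 to 25 Mb and 0.929 (0.907 to 0.951) at 31 to 32 Mb, just outside that stretch on either side. In untreated cells the highest bins were those from 43 to 44 Mb, at the block's edge, and from 28 to 29 Mb, both at 1.08 (1.07 to 1.09). The lowest was 0.978 (0.968 to 0.988) at 35 to 36 Mb. Bins of the stretches filled 6 of the 8 highest places with DRB and 8 of 8 untreated.

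Not every bin followed the stretch it lay in. The bin from 39 to 40 Mb, where the second stretch begins, had 0.957 (0.932 to 0.983) with DRB and 0.993 (0.983 to 1.00) untreated, among the lowest of the block. The bin from 25 to 26 Mb had 1.10 (1.06 to 1.13) and 1.00 (0.991 to 1.01), the lowest of the first stretch in both conditions. Conversely the bin from 33 to 34 Mb, in the part between the stretches, had 1.27 (1.22 to 1.32) with DRB and 1.03 (1.02 to 1.04) untreated, and the bin from 22 to 23 Mb had 1.27 (1.21 to 1.32) and 1.04 (1.03 to 1.05). Within the block, these 2 bins were the highest outside the stretches in both conditions.

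**Figure D2:**
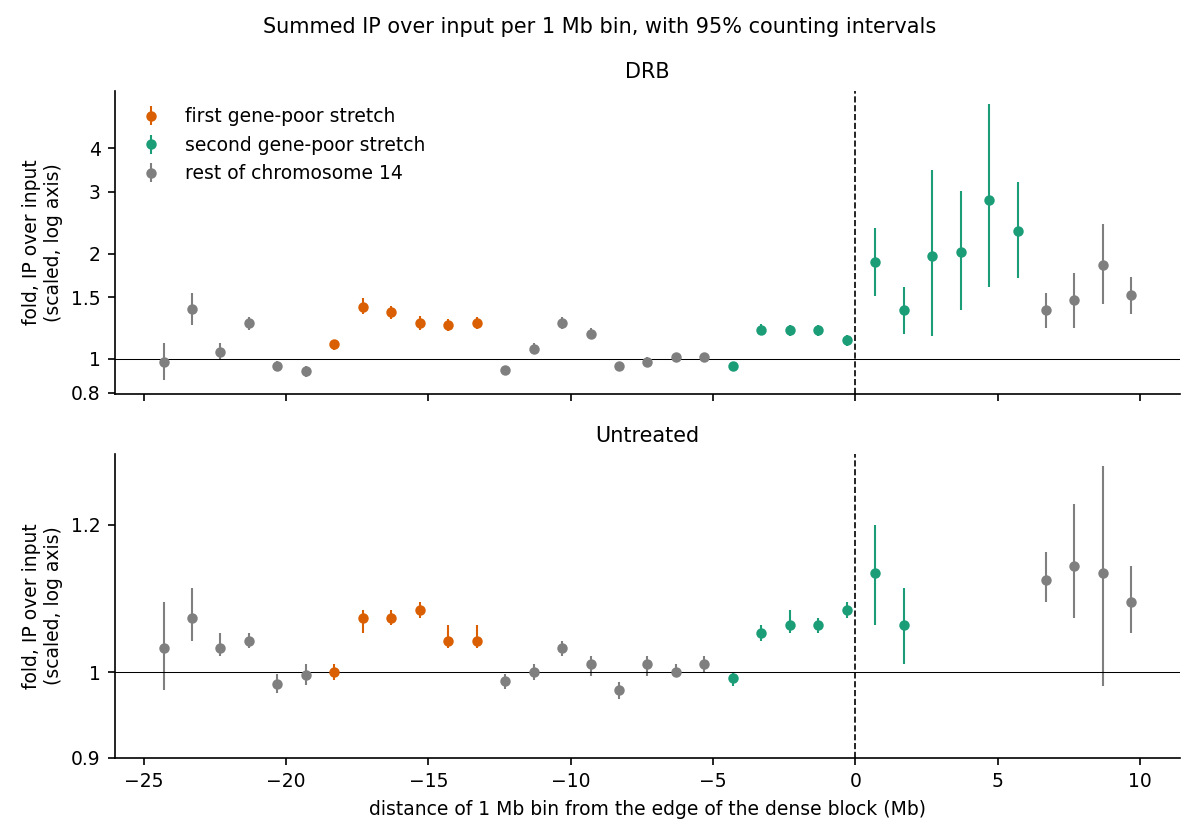
Summed fold per 1 Mb bin (y axis, log scale, IP over input times the authors' constant) against the distance of the bin's centre from the edge of the dense block (x axis, Mb), up to 10 Mb beyond it, with DRB above and untreated below. Bars are 95% counting intervals and bins without an island are missing. Within the block the stretch bins reach 1.41 with DRB and 1.08 untreated, but the stretch bin from 39 to 40 Mb lies at 0.957 and 0.993.

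Bins with a high fold tended to be bins with little input. Since a bin's own input enters its fold, the fold of each condition was set against the input of the other. The inputs of the conditions ran together over the 22 bins (Pearson's r = 0.965, Spearman's rho = 0.971). The swap therefore does not separate a fold from the input density of its own bin. Across the 22 bins of the block, the DRB fold ran against the untreated input per kb of island with Pearson's r = -0.908 and Spearman's rho = -0.915. Without the 2 bins farthest from the median input, r was -0.906. Among the 11 stretch bins alone r was -0.961 (-0.897 without the 2 farthest), and among the 11 other bins it was -0.810, which rested in part on the 2 farthest bins (-0.528 without them). The untreated fold against the DRB input gave r = -0.769 and rho = -0.767, and among the stretch bins alone r = -0.598 and rho = -0.373. The folds of the conditions ran together at r = 0.824 and rho = 0.806 over all 22 bins. Among the stretch bins that r was 0.690, and -0.0116 without the 2 bins farthest from the median untreated fold, so there it rested on those bins. These are descriptions across neighbouring bins of the same libraries, not tests. The bins from 31 to 32 Mb and from 26 to 27 Mb were the extremes in both tables: input was 16.4 and 6.96 reads per kb with DRB, and 99.9 and 56.1 untreated. The part of this in the contrast between stretches and rest was not tested.

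**Figure D3:**
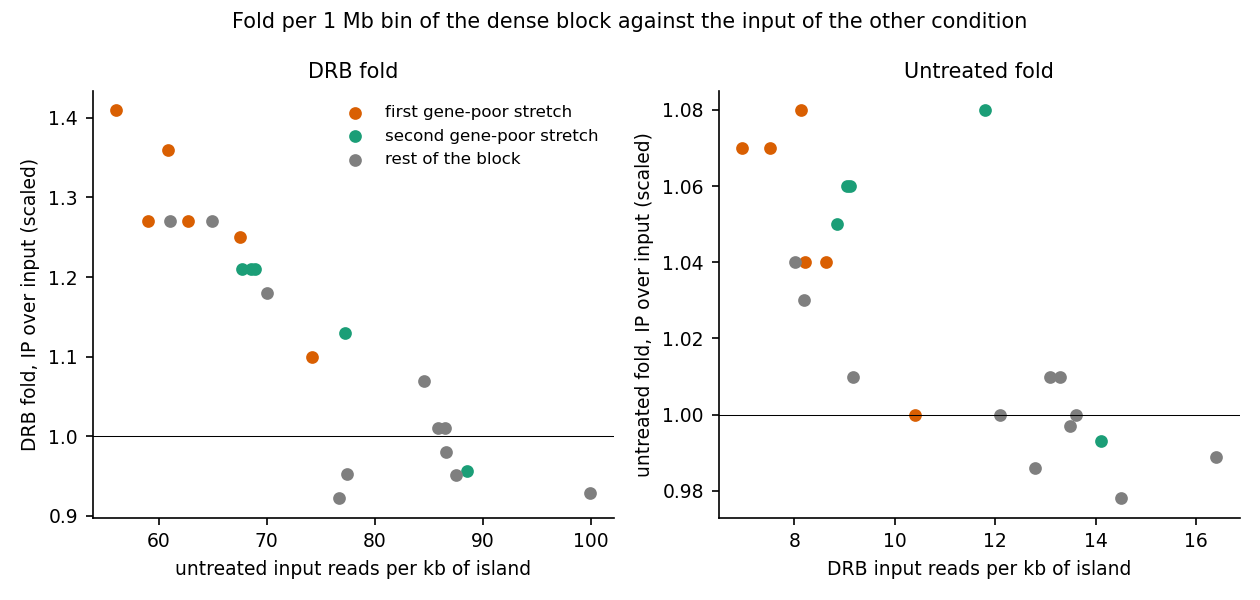
Fold of each 1 Mb bin of the dense block (y axis) against the input density of the other condition over its islands (x axis, reads per kb), with the DRB fold left and the untreated fold right. Bins with fewer input reads tend to have higher folds (r = -0.908 for the DRB fold and -0.769 for the untreated fold over 22 bins), with exceptions such as the bin from 43 to 44 Mb, which has the highest untreated fold at 11.8 DRB input reads per kb.

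The number of input reads behind single islands moved with the fold in the same way. The islands of each table were ordered by input reads and split into 4 groups of like size. With DRB the median fold was 1.94 in the lowest group (1 to 12 input reads), then 1.32 and 1.17, and 1.04 in the highest (38 to 1567 reads). Untreated it was 1.15 in the lowest group (41 to 211 reads), then 1.06 and 1.04, and 1.03 in the highest (1134 to 26260 reads). Ordering by input favours a high fold in the lowest group, since input is the denominator.

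The authors called an island significant at a false discovery rate under 1e-04. With DRB they called 110 members, or 2.79%, against 4.76% of all DRB islands. Untreated they called 79 members, or 5.73%, against 5.10% of all untreated islands. Within the block, called untreated islands lay mostly in the stretches: 33 of 460 islands there (7.17%), of them 14 of 282 in the first stretch (4.96%) and 19 of 178 in the second (10.7%), and 4 of 360 in the rest of the block (1.11%). From 31 to 39 Mb, between the stretches, 1 of 209 was called (0.478%). The shares with DRB were 29 of 1498 in the stretches (1.94%) and 18 of 1459 in the rest of the block (1.23%). From 44 Mb on they were higher, with 61 of 867 called with DRB (7.04%) and 40 of 486 untreated (8.23%). The limit that islands were outlined in the IP holds for these shares too.

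**Figure D4:**
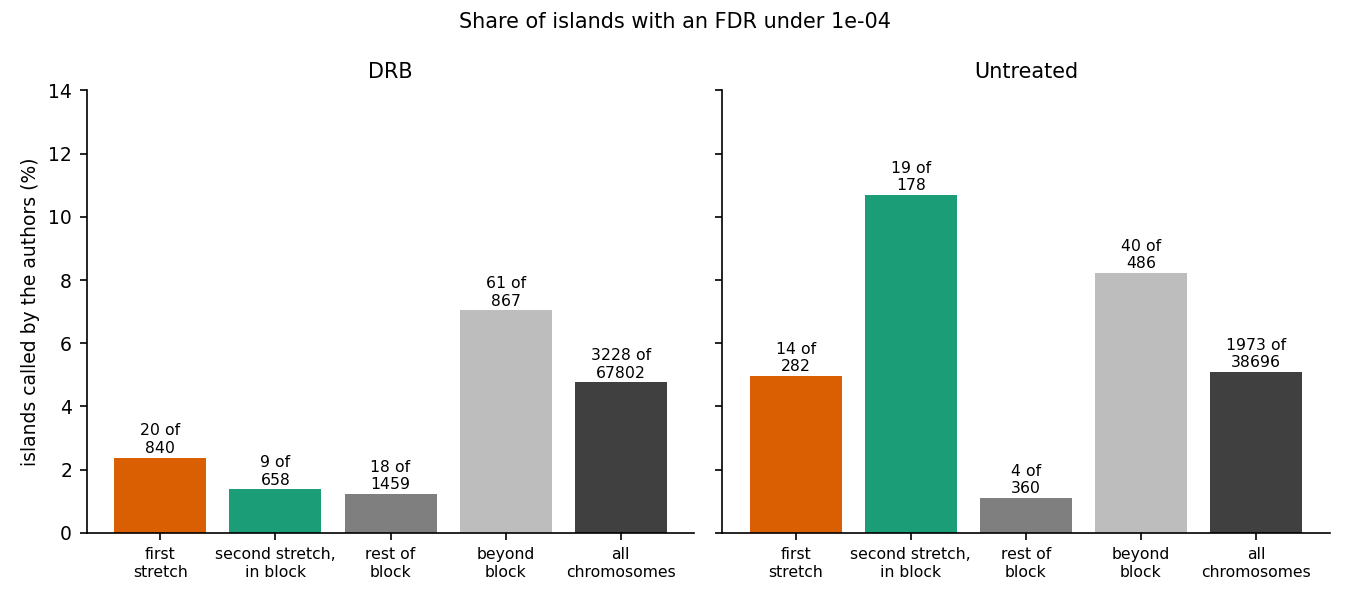
Share of islands that the authors called at a false discovery rate under 1e-04 (y axis, percent) in the first stretch, the part of the second stretch inside the block, the rest of the block, the chromosome from 44 Mb on, and all chromosomes, with DRB left and untreated right. Numbers give called islands and all islands. Untreated calls number 14 of 282 and 19 of 178 in the stretches, against 4 of 360 in the rest of the block.

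Calls in DRB and in untreated cells were of a different kind. The 110 DRB calls had a median width of 1.4 kb and medians of 21 IP and 5 input reads, a median fold of 3.53 (1.32 to 12.0 over the calls), and 81 of them (73.6%) had 10 or fewer input reads. The 79 untreated calls had a median width of 6.6 kb and medians of 477 IP and 368 input reads, with a median fold of 1.29 (1.04 to 2.38). A called untreated island lay over 5 of the DRB calls, and a called DRB island over 5 of the untreated calls. Some island of the other table lay over 52 of the 110 DRB calls (47.3%) and 52 of the 79 untreated calls (65.8%). Both shares lay below those of all members, 82.0% and 74.2%. The shares over all islands were 52.1% and 61.1%.

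The authors' p-value does not include the counting error of the input, so each whole table was also tested with an exact two-sided binomial test on the IP and input reads of every island, with Benjamini-Hochberg adjustment. At an adjusted p under 0.05, 0 DRB members were higher in the IP, where 0.00885% of all DRB islands (6 islands) were. At an unadjusted p under 0.05, 347 members were higher (8.79%, against 12.4% of all DRB islands) and 88 lower (2.23%, against 0.518%). The medians were 30 IP and 21 input reads per member, and a modest enrichment of a DRB island of that depth was not detectable. A modest change could pass in a deep island, as at chr14:37695801-37751400, with 1225 IP and 1293 input reads and a fold of 0.815. Untreated, 86 members were higher, or 6.24%, against 5.17% of all untreated islands. That direction depends on the scaling. With DRB folds divided by 1.29 and untreated folds by 1.08, 14 untreated members were higher and 71 lower, and 0 DRB members were higher and 119 lower. The DRB divisor does not bring that table to a median fold of 1, since its median over all islands was 1.51. Back at the authors' constants, members lower in the IP at an adjusted p under 0.05 made up 0.355% with DRB (14 islands, background 0.0826%). Untreated they made up 0.508% (7 islands, background 0.0853%). Those were 14 of the 56 such islands on all chromosomes with DRB and 7 of 33 untreated, and all of them lay in the block.

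The 14 DRB islands with significantly less IP than input lay in a few clusters. The lowest p, picked after the values were seen, was that of chr14:35442601-35463800, with 390 IP and 515 input reads, a fold of 0.652 (0.570 to 0.745, exact binomial test, adjusted p = 5.38e-07). Within the single untreated island chr14:39492201-39730800, 4 DRB islands were depleted, from chr14:39543201-39579600 with 700 IP and 789 input reads (fold 0.764, exact binomial test, adjusted p = 5.00e-04) to chr14:39696801-39707000 with 232 and 291 (fold 0.686, exact binomial test, adjusted p = 0.0242). The others were 7 islands between 22 and 25 Mb and 2 more from 31 to 39 Mb, chr14:37695801-37751400 and chr14:31065801-31102600. None lay in the first stretch. Input density in the 14 ran from 21.7 to 55.7 reads per kb, against a median of 8.64 over all DRB members. The untreated islands over these 14 had folds from 0.924 to 1.10.

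The 7 depleted untreated islands were wide and shallow. They ranged from chr14:35072601-35106000 with 2474 IP and 2932 input reads, a fold of 0.905 (0.858 to 0.955), to chr14:25250801-25513400 with 23643 IP and 26260 input reads, a fold of 0.966 (0.949 to 0.983). The second of these is the widest island of the untreated table.

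Wide islands were common on chromosome 14. Of the 1246 untreated islands of 20 kb or more on all chromosomes, 308 were members, 303 of them in the block. Of the 30 of 100 kb or more, 23 were members, all in the block. With DRB 33 of 49 islands of 20 kb or more were members, all in the block too. The median width of untreated islands was 13.0 kb in the block and 4.0 kb from 44 Mb on, against 4.8 kb over all untreated islands. With DRB it was 3.0 kb and 1.6 kb, against 2.0 kb over all DRB islands.

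The widest islands had IP near or below input. The 5 widest DRB islands ran from 78.8 kb at chr14:31371601-31450400, with 1708 IP and 1567 input reads (fold 0.938, 0.875 to 1.01), to 35.2 kb at chr14:43687401-43722600, with 678 and 571 (fold 1.02, 0.913 to 1.14). The lowest of the 5 was chr14:39543201-39579600, described above. The 5 widest untreated islands ran from 262.6 kb at chr14:25250801-25513400 to 210.4 kb at chr14:38025801-38236200, with 20813 IP and 22645 input reads (fold 0.986, 0.968 to 1.00). Between these lay chr14:39492201-39730800 (238.6 kb, fold 0.981), chr14:36057001-36280800 (223.8 kb, fold 0.992) and chr14:31305201-31525200 (220.0 kb, fold 0.976). None of these 10 islands was called. DRB islands lay over all 5 of the untreated ones, with folds over their summed reads of 1.00 (0.953 to 1.05) in the first and from 0.813 (0.777 to 0.851) to 0.925 (0.883 to 0.969) in the other 4.

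Among untreated islands of 20 kb or more in the block, the called ones were again mostly in the stretches, with 26 of 169 (15.4%) there and 3 of 134 (2.24%) in the rest of the block, against 6.10% of all untreated islands of that width. Their folds were small. In the first stretch chr14:28201801-28229200 had 1603 IP and 1395 input reads, a fold of 1.23 (1.15 to 1.33, exact binomial test, adjusted p = 2.45e-06), and chr14:30578401-30642400 had 3924 and 3774, a fold of 1.12 (1.07 to 1.17, exact binomial test, adjusted p = 2.03e-04). In the second, chr14:43211801-43254800 had 2907 and 2702, a fold of 1.15 (1.10 to 1.22, exact binomial test, adjusted p = 1.48e-05), and chr14:43606001-43723000, 117.0 kb wide, had 12606 and 12961, a fold of 1.04 (1.02 to 1.07, exact binomial test, adjusted p = 0.0209). These 4 were picked after their values were seen, except for the last, which is among the 3 widest of its stretch. The bin from 43 to 44 Mb held 10 of the 19 calls of the second stretch inside the block.

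The steepest untreated islands were narrow and lay outside the stretches. The highest called fold was 2.38 (1.63 to 3.53) at chr14:56269401-56270400, with 91 IP and 41 input reads. Next came chr14:80934601-80936200 with 221 and 117 reads, a fold of 2.03 (1.61 to 2.56), and chr14:80469001-80470600 with 138 and 79, a fold of 1.87 (1.41 to 2.50). The other 7 of the 10 highest had folds from 1.59 to 1.84, and all 10 lay beyond 50 Mb and were at most 2.6 kb wide. A DRB island lay over 2 of the 10, at chr14:50368601-50371200, where DRB gave 16 IP and 10 input reads (fold 1.38, 0.588 to 3.39), and at chr14:68935201-68937000, where it gave 27 and 12 (fold 1.94, 0.949 to 4.20). Their untreated folds were 1.76 (1.32 to 2.38) and 1.59 (1.25 to 2.03). No DRB island lay over the remaining 8. A DRB island lay over 46.1% of the untreated islands from 44 Mb on and over 61.1% of all untreated islands.

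Inside the stretches the called untreated folds were lower. In the first stretch the 3 highest were 1.33 (1.15 to 1.53) at chr14:28475601-28481600, 1.30 (1.11 to 1.52) at chr14:28277201-28283800 and 1.26 (1.09 to 1.46) at chr14:27922001-27928200. They rested on 445, 360 and 405 IP reads against 360, 298 and 345 input reads. In the second stretch the highest was 1.45 (1.15 to 1.84) at chr14:44178601-44182400, past the edge of the block, with 172 IP and 127 input reads. Then came 1.21 (1.08 to 1.35) at chr14:43598201-43605200 and 1.17 (1.07 to 1.28) at chr14:40801401-40817400.

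The highest DRB folds rested on very few reads. The top was 12.0-fold at chr14:52768001-52768200, a single window of 0.2 kb with 14 IP reads and 1 input read, and its interval reached from 1.83 to 510. In the second stretch chr14:45681401-45681600 had 12 IP reads and 1 input read (fold 10.3, 1.53 to 442), and chr14:48977001-48978400 had 18 and 2 (fold 7.75, 1.85 to 68.8). The 3 highest of the first stretch, chr14:26636201-26636600, chr14:27320201-27320400 and chr14:26016601-26017200, had 13, 13 and 19 IP reads against 2, 2 and 3 input reads, with folds of 5.59, 5.59 and 5.45. All of the 10 highest had an adjusted p of 0.353 in the exact binomial test. None lay over an untreated island, including the 1 inside the block at chr14:22884001-22884200. An untreated island lay under 52.1% of all DRB islands, 28.7% of those from 44 Mb on and 98.2% of those in the block. The untreated islands over the 3 of the first stretch had folds of 1.05 (0.971 to 1.13), 1.11 (1.04 to 1.18) and 1.09 (1.00 to 1.18).

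Overlap between the conditions followed their cover, so the shares below are descriptions only. Inside the block, where untreated islands covered a median of 91.9% of a bin, 98.2% of DRB islands overlapped an untreated island (97.6 to 98.6) and 90.7% of untreated islands overlapped a DRB island (88.5 to 92.6). From 44 Mb on, where that cover was 2.60%, these shares were 28.7% (25.7 to 31.9) and 46.1% (41.6 to 50.6), below those of all islands, 52.1% and 61.1%. Between the stretches of the block and its rest, the shares were 99.0% (98.4 to 99.4) and 97.3% (96.4 to 98.1) of DRB islands, and 90.7% (87.6 to 93.2) and 90.8% (87.4 to 93.6) of untreated islands. DRB islands took up less of the ground, covering 53.9% of the untreated island length in the stretches and 66.9% in the rest of the block. With 194671 IP reads in the DRB islands of the chromosome against 1536878 in the untreated ones, cover and calls are not comparable as levels of binding.

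Islands of the conditions were compared directly only where they covered each other by at least 50%, which left 247 pairs on chromosome 14 among 7548 in all. The fold with DRB over that untreated had a median of 1.13 (quartiles 0.948 and 1.31), against 1.12 over all pairs. In the stretches the median was 1.18 over 78 pairs and in the rest of the chromosome 1.10 over 169. The DRB fold was the lower one in 17 of the 78 pairs of the stretches (21.8%) and in 58 of the 169 of the rest (34.3%). Within the block these medians were 1.19 and 1.11 over 74 and 71 pairs. Whether the DRB fold is the higher one depends on the scaling. With DRB folds divided by 1.29 and untreated folds by 1.08, the median was 0.941 on chromosome 14 and 0.933 over all pairs. The DRB fold was then the lower one in 52.6% of the pairs of the stretches and 63.9% of those of the rest.

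The read counts of each pair were put through an exact conditional test, adjusted over all pairs. On chromosome 14, 2 of the 247 pairs differed, both lower with DRB, where 0.901% of all pairs were lower. None was higher, where 0.0397% of all pairs were. On simulated data this test missed most of the ratios of 2 and 0.5 put in, so a pair that did not pass may still differ. At 1 bp of overlap, with the DRB reads over an untreated island summed, 10 of 1022 on chromosome 14 were lower and 7 higher with DRB. On all chromosomes 111 of 23639 were lower and 22 higher at that overlap. At an unadjusted p under 0.05 there were 16 of the 247 (6.48%), near the 5.80% of all pairs. Of the 2 pairs that differed in the adjusted test, the wider was chr14:37695801-37751400 with DRB, at 1225 IP and 1293 input reads and a fold of 0.815 (0.754 to 0.882). It stood against chr14:37661401-37762400 untreated, at 10323 and 11328 and a fold of 0.978 (0.952 to 1.00). Their ratio was 0.834 (0.767 to 0.907, exact conditional test, adjusted p = 0.00265). The other was chr14:24582601-24588400 with DRB, at 111 and 154 reads and a fold of 0.620 (0.482 to 0.797), against chr14:24582601-24591000 untreated, at 991 and 1025 reads and a fold of 1.04 (0.950 to 1.13). Their ratio was 0.598 (0.457 to 0.781, exact conditional test, adjusted p = 0.0146). Both lie in the block outside the stretches. The next 3 pairs by p did not pass, with adjusted p from 0.196 to 0.589, and 1 of them, chr14:29464801-29471200 with DRB, lies in the first stretch, with 67 IP and 36 input reads and a ratio of 1.74 (1.11 to 2.74).

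**Figure D5:**
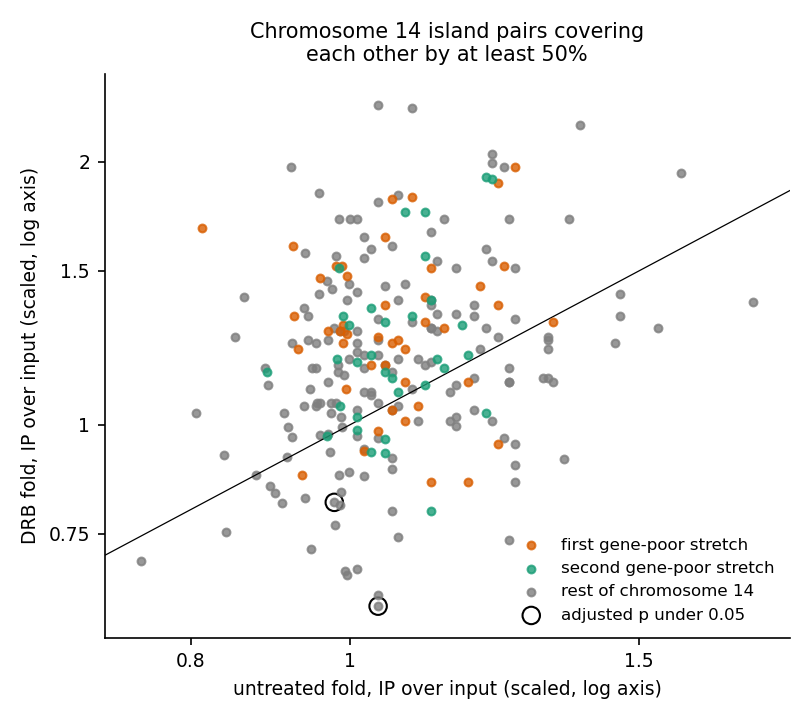
DRB fold (y axis, log scale) against untreated fold (x axis, log scale) of the 247 pairs of chromosome 14 islands that cover each other by at least 50%, coloured by stretch. The line marks equal folds and circles mark the 2 pairs with an adjusted p under 0.05, at DRB folds of 0.815 and 0.620. Of the 247 pairs, 75 lie below the line, and 149 would with DRB folds divided by 1.29 and untreated folds by 1.08.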

How the data were processed

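HA-METTL14 ChIP-seq of HepG2 was analysed, with 6 libraries in 2 conditions. Per the submitters' processing notes, the build was hg19 and the tools were SICER (no version), Bowtie 1.1.2 and FastQC 0.11.5. Their settings and how replicates were pooled were not given in the sources used here. The authors deposited per condition a headerless table of islands with raw counts of IP and input reads, a p-value, a fold (a ratio) and a false discovery rate, and a list of significant islands. From the values, islands are multiples of 200 bp, and the deposited lists were the islands with a false discovery rate under 1e-04 (3228 DRB and 1973 untreated).

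Summed folds, single islands and pairs carry exact intervals (95%), and ratios of summed folds carry log-normal ones. Tests were exact binomial and exact conditional tests with the authors' constants, Benjamini-Hochberg adjusted over all islands or pairs. Changes put into simulated data were folds, or ratios of folds for pairs, of 2 and 0.5. The DRB binomial test and the pair test missed most of them, while the untreated binomial test found nearly all. The untreated members had fold quartiles of 0.999 and 1.13, and recovery of changes that small was not simulated. Reads are not independent molecules. Named islands were the 10 called ones of highest fold and the 5 widest per condition, the 3 of each kind per stretch, and the 5 pairs of lowest p. The members, lists and tests were chosen with earlier results of these data known. The 22 to 44 Mb block was added after the data were seen. Sequences and hg19 genes were not used here. The work used SciPy 1.17.1, pandas 2.3.3, numpy 2.4.6 and matplotlib 3.10.9 under Python 3.11.15.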

Additional observations from a re-analysis of the deposited data

Results flagged for a closer look

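The contrast between the gene-poor stretches and the rest of chromosome 14 differed between the conditions. It was 1.06 times as large with DRB as untreated (1.05 to 1.08 by counting error over the summed reads), with 1.10 in DRB and 1.03 in untreated islands. The median over islands gave 0.970.

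The DRB island chr14:37695801-37751400 and the untreated island over it differed by a ratio of 0.834 in the exact conditional test. The same test gave 0.598 for chr14:24582601-24588400. In both pairs the DRB fold was the lower one, and the islands of a pair differ in extent.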

How the results depend on the processing

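No paired analysis was possible because the deposited tables pool the replicates of each condition, so no column belongs to a replicate, and for the same reason leaving out each replicate was not run. The 22 to 44 Mb block and the part from 44 Mb on were added after the data were seen. Taken as the median over islands, the stretches over the rest came to 0.984 with DRB and 1.01 untreated, and the contrast of conditions to 0.970. Inside the block the median gave 1.05 untreated and 1.05 for DRB over untreated. From 44 Mb on the values were 1.09 with DRB, 0.981 untreated and 1.11 between them, none beyond counting error. With islands of 2 to 10 kb the untreated value was 0.998. With islands of 20 kb or more in the block, the DRB value was 1.02 and DRB over untreated 0.982, and with the second stretch alone DRB over untreated was 1.02. At a 10 times lower false discovery rate 36 DRB and 43 untreated members were called, against 110 and 79. At a binomial adjusted p under 1e-04, 1 DRB and 6 untreated members passed, against 14 and 93. With DRB folds divided by 1.29 and untreated folds by 1.08, 119 DRB members passed, all lower in the IP. Of 85 untreated members that passed, 14 were higher and 71 lower, against 86 and 7. Pairs that differed numbered 17 of 1022 at 1 bp of overlap (10 lower and 7 higher with DRB), where 111 of all 23639 were lower and 22 higher. With the divisors above 7 of 247 differed (all lower), where 158 of all 7548 were lower and 1 higher. At the main setting 2 of the 247 differed. The share of untreated members over a DRB island was 17.9% at 50% reciprocal overlap, against 74.2%. Depth limits the DRB table, where the median member had 30 IP and 21 input reads, against 380 and 385 untreated.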

Other observations

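Dense cover was shared with other chromosomes rich in islands, and how far depended on the threshold. Of the 1 Mb bins of all chromosomes that were at least 70% covered, chromosome 14 held 4 of 4 with DRB and 21 of 33 untreated. The other untreated ones lay on chromosomes 2 (6 bins), 20 (5 bins) and 6 (1 bin). At 50% covered or more it held 11 of 12 bins with DRB and 22 of 103 untreated, where chromosomes 2, 6 and 20 held 49, 16 and 14 of the 103. The summed fold of the chromosome 14 members was 1.11 with DRB, where the islands of chromosomes 2, 6, 16, 17 and 20 had 1.29, 1.29, 1.20, 1.22 and 1.20. Called shares with DRB were 2.79% on chromosome 14 and 3.29%, 3.41%, 3.34%, 3.31% and 2.47% on those 5. Among chromosome 14 islands from 44 Mb on, the called share with DRB was 7.04%.

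Wider members had lower summed folds in both conditions. DRB members under 2 kb had a summed fold of 1.49 (1338 islands), those of 2 to 10 kb 1.14 (2407), those of 10 to 20 kb 0.951 (168) and those of 20 kb or more 0.898 (33). Untreated members had 1.25 (42 islands), 1.07 (819), 1.04 (209) and 1.02 (308). Between 10 and 20 kb the DRB islands of the stretches had 1.04 and those of the rest 0.921.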
